A study of Mus musculus with 9 samples.

Results

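Hearts of mouse embryos at E10.5 that carried one floxed and one wild-type *Ctcf* allele together with the *Nkx2.5-Cre* driver (*Ctcf* fl/+;*Nkx2.5-Cre*, heterozygotes) were compared with control hearts that lacked the driver. The comparison was chosen by genotype and holds 6 of the 9 RNA-seq libraries of the study, 3 of heterozygotes and 3 of controls. The other 3 libraries are from homozygotes (*Ctcf* fl/fl;*Nkx2.5-Cre*), which also carry the driver and are given here beside the heterozygotes. Each library was made from polyA RNA of a pool of 6 hearts, and 14011 genes were tested. The strain is given as mixed. The controls are *Ctcf* fl/+ without Cre in the study's methods, whereas their sample labels give the genotype fl/fl, so the number of floxed alleles in controls is uncertain. Loss of a *Ctcf* allele and presence of the driver occur together in the heterozygotes, and the parts of each in a difference from controls cannot be told apart. The driver recombines in cells of the *Nkx2-5* lineage of the heart, and cells of the pool outside that lineage keep *Ctcf*.

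CTCF is a zinc-finger protein that binds insulator sites and, with the cohesin ring, anchors chromatin loops that set which enhancers can reach which promoters. *Nkx2-5*, the gene for which the driver is named, encodes a homeodomain transcription factor of cardiac progenitors and cardiomyocytes. Its locus lies on chromosome 17, which also carries the *t* complex and the H2 histocompatibility genes. The sources used here do not say where the driver is inserted.

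Values are normalized reads, (reads + 0.5) scaled in each library to its effective size, and 1 read was worth from 0.0981 to 0.231 units in the heterozygous libraries and from 0.102 to 0.146 in the control libraries. Total reads were from 4294537 to 9896345 in heterozygotes and from 6698891 to 9654014 in controls. Libraries are named by the number that ends their column, which matches no individual heart pool of the labels for these groups. Differences are log2 fold changes of heterozygotes against controls on the log2(value + 0.5) scale, which understates changes of low genes, and genes with a limma adjusted p under 0.05 were called. Cardiomyocyte markers were abundant in every library, with sums over 10 genes of 21430, 24230 and 23390 in heterozygotes 1, 2 and 3 and 18670, 20810 and 21360 in controls 1, 2 and 3. Control 1 stood apart in markers of liver and endoderm, which summed to 1092 there, to 94.7 and 104 in controls 2 and 3 and to between 27.7 and 48.2 in heterozygotes.

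Few genes separated the genotypes. Between heterozygotes and controls 20 genes were called (0.143% of those tested), 13 higher (0.0928%) and 7 lower (0.05%) in heterozygotes. Without control 1, 22 genes were called higher and 3 lower. At an unadjusted p under 0.05 there were 1032 genes (7.37%), 444 higher and 588 lower. In 2009 genes (14.3%) the 3 heterozygous libraries lay all above or all below the 3 control libraries, and for a single gene an exact permutation test of 3 libraries against 3 cannot give a p below 0.10. The called genes were of a few kinds: *Ctcf*, 4 genes of chromosome 17, 8 annotated pseudogenes, 3 near-identical copies annotated as coding (*Gm9846*, *Gm4737* and *Rpsa-ps10*), 2 genes that have such copies (*Rpl34* and *Ahcy*), and *Nrk* and *Nfat5*. Every gene of the table had a value of at least 1 in 3 or more libraries. Of the 13 genes called higher, 9 had such a value in at most 1 control library, so they are in the table only through libraries that carry the driver, and *Gm15772*, *Gm4737* and *Gm12245* only through the heterozygotes. *Gm9846* is in it only through the controls. The p-values of these copies rest in part on values near the floor, and are given as a description of the libraries and not as support. The plot of the called genes shows the values of 19 of them in each library.

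**Figure D1:**
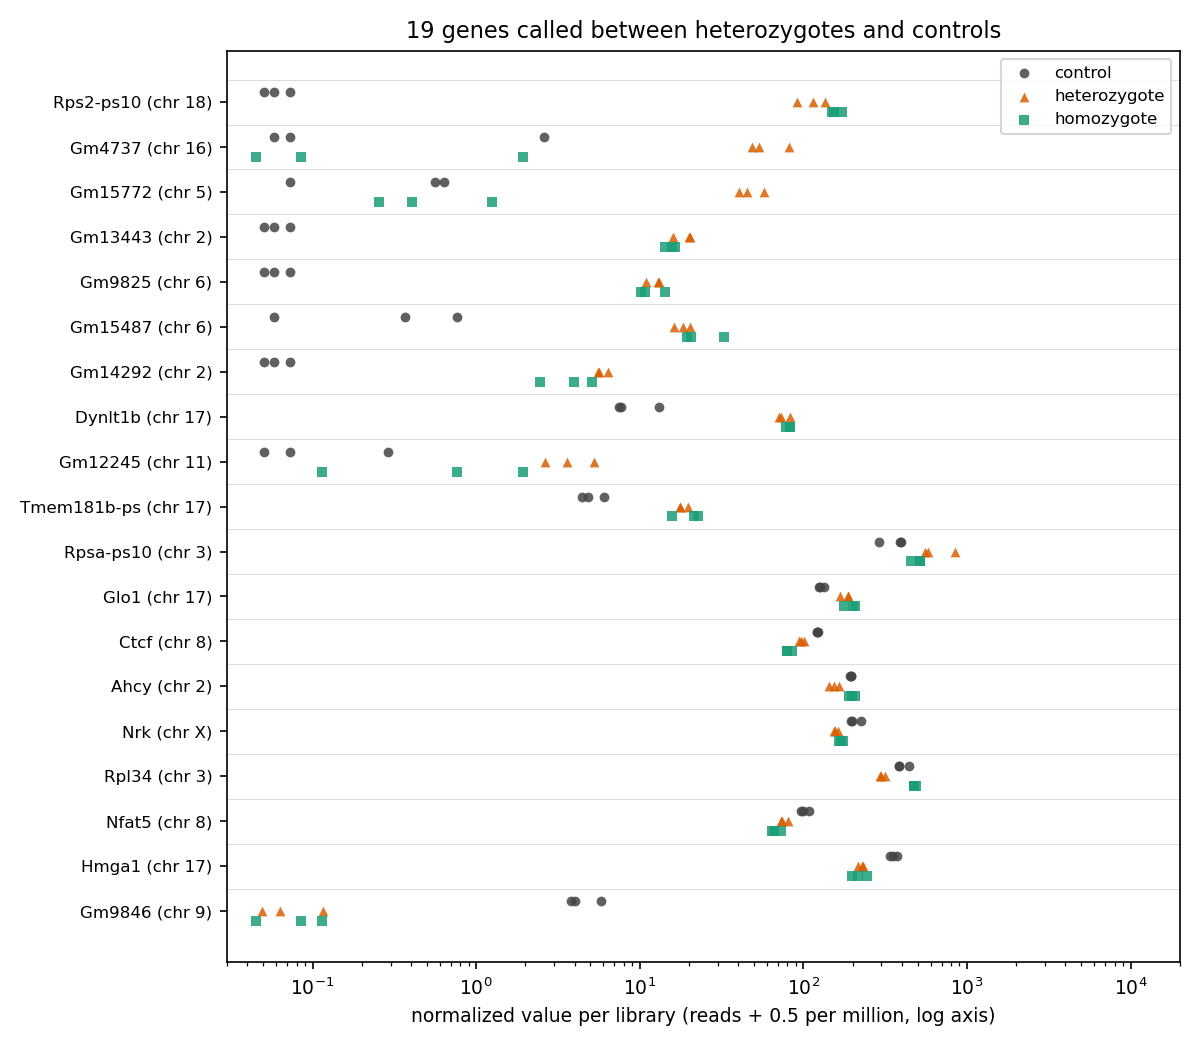
Normalized value on a log axis of 19 of the 20 called genes in each library, with circles for controls, triangles for heterozygotes and squares for homozygotes. In *Rps2-ps10*, *Gm13443*, *Gm9825* and *Gm14292* all control points are values of 0 reads, and in *Gm4737* and *Gm15772* the homozygote points lie with the controls.

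The sequences below are shown because most of the largest differences were in processed copies that are nearly identical to an expressed gene, so that a read of one can be assigned to the other. Each pair holds a stretch of 120 bases, 5′ to 3′ on the strand of the gene, with bases that differ between the copy and its parent in capitals. The stretches of the copies are at chr6:37756136-37756255 on the plus strand (*Gm15487*), chr2:178912367-178912486 on the plus strand (*Gm14292*) and chr16:46154008-46154127 on the minus strand (*Gm4737*) of NCBIM37. They align with coding bases 51 to 170 of *Atp6v0c*, 238 to 357 of *Wtap* and 999 to 1118 of *Ahcy*.
Gm15487: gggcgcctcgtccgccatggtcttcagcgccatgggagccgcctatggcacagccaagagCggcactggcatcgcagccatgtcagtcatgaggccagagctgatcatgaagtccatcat
Atp6v0c: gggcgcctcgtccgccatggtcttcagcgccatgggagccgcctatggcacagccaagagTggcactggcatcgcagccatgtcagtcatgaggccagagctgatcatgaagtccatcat
Gm14292: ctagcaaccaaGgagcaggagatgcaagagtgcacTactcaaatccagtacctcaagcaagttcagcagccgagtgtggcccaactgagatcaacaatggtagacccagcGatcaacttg
Wtap: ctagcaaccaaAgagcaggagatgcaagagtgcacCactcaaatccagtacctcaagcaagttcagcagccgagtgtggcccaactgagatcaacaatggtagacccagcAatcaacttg
Gm4737: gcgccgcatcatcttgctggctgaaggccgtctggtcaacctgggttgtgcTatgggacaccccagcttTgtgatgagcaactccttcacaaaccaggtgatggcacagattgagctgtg
Ahcy: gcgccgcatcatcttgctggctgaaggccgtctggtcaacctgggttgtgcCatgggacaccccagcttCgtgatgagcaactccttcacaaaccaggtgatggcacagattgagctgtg

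Over the aligned coding bases, *Gm15487* differed from *Atp6v0c* at 1 of 468 positions, *Gm14292* from *Wtap* at 3 of 456 and *Gm4737* from *Ahcy* at 4 of 1299. *Gm15772* differed from *Rpl26* at 2 of 438 coding positions, and *Dynlt1b* from its family member *Dynlt1c* at 1 of 342.

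*Ctcf* RNA fell in heterozygotes to 80.1% of controls. *Ctcf* (chromosome 8, 108160468 to 108206822, plus strand) had values of 121, 122 and 122 in controls 1, 2 and 3 and of 101, 94.2 and 97.0 in heterozygotes 1, 2 and 3. Every heterozygous library lay below every control library. The log2 fold change was -0.32 (standard error 0.06, 95% interval -0.44 to -0.20, limma adjusted p = 0.0467). In homozygotes the values were 79.6, 80.0 and 84.7, below all heterozygous libraries. The call is near the threshold: it held in 6 of 22 alternative settings, with adjusted p between 0.0284 and 0.269 and the same direction in all. The reads were counted over the gene as a whole, floxed exons and others together. In bulk RNA fewer cells of a type and less RNA per cell cannot be told apart.

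Of the measured genes next to *Ctcf*, *Rltpr*, an actin-capping regulator gene, differed most. *Rltpr* begins 3.35 kb past the end of *Ctcf* on the same strand (108210174 to 108222078). Its values were 1.22, 0.457 and 0.512 in controls and 2.89, 3.97 and 1.96 in heterozygotes, and every heterozygous library was above every control library. The log2 fold change was 1.5 (standard error 0.31, unadjusted p = 0.000327), which did not pass adjustment over all genes (limma adjusted p = 0.139). Only control 1 had a value of at least 1, so *Rltpr* is in the table only through libraries that carry the driver. Its p-value is given as a description and not as support. In homozygotes the values were 6.93, 6.69 and 4.01. The other measured neighbors, *Atp6v0d1*, *Gm8841*, *Fam65a*, *Acd* and *Pard6a*, had no unadjusted p under 0.05. Within 1 Mb of *Ctcf*, 49 other genes were tested, and 7 of them (14.3%), *Rltpr* included, had an unadjusted p under 0.05, all higher in heterozygotes, against 7.37% over all genes. At an unadjusted p under 0.01 the share was 2.04% in that window, near the 2.03% over all genes. The median log2 fold change in that window was 0.03 (0.0167 to 0.0536 over the alternative settings), and none was called. *Zdhhc1*, a palmitoyltransferase gene 0.152 Mb from *Ctcf*, is an example, with 7.04, 7.78 and 5.48 in controls and 8.97, 9.65 and 8.65 in heterozygotes (log2 fold change 0.41, unadjusted p = 0.0215).

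*Nfat5*, which encodes the transcription factor of the response to hypertonic stress, lies 1.66 Mb from *Ctcf* and was the only other called gene on chromosome 8. It had 99.6, 96.3 and 108 in controls and 72.7, 73.7 and 80.2 in heterozygotes, with no overlap. The log2 fold change was -0.42 (standard error 0.07, limma adjusted p = 0.0345), and homozygotes had 66.2, 72.7 and 63.9. It was called in 12 of 22 settings, and its log2 fold change lay between -0.46 and -0.31 in all of them. Among 26 CTCF and cohesin genes, *Ctcf*, the gene targeted by the genotype, was the only one called. With *Ctcf*, 4 genes of the list (15.4%) had an unadjusted p under 0.05, against 7.37% over all genes. The 3 others were lower: *Pds5a* (log2 fold change -0.26) and *Nipbl* (-0.35), which regulate cohesin on chromatin, and *Yy1* (-0.18), a zinc-finger factor. None of these passed adjustment, and the median over the list was -0.02 (-0.0601 without control 2).

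*Nkx2-5* itself had lower values in heterozygotes, but did not pass the test. *Nkx2-5* (chromosome 17, 26975609 to 26978510, minus strand) had 69.2, 81.2 and 75.8 in controls and 53.7, 58.8 and 58.5 in heterozygotes, without overlap. The mean was 75.6% of controls (log2 fold change -0.40, standard error 0.08, unadjusted p = 0.000175, limma adjusted p = 0.0974). It was called in 1 of 22 settings. Homozygotes had 38.3, 36.8 and 41.4. The 3 measured genes on each side of it, *Atp6v0e*, *A930001N09Rik*, *Bnip1*, *Kifc5b*, *Phf1* and *Cuta*, between 0.0605 and 0.165 Mb away, had no unadjusted p under 0.05.

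**Figure D2:**
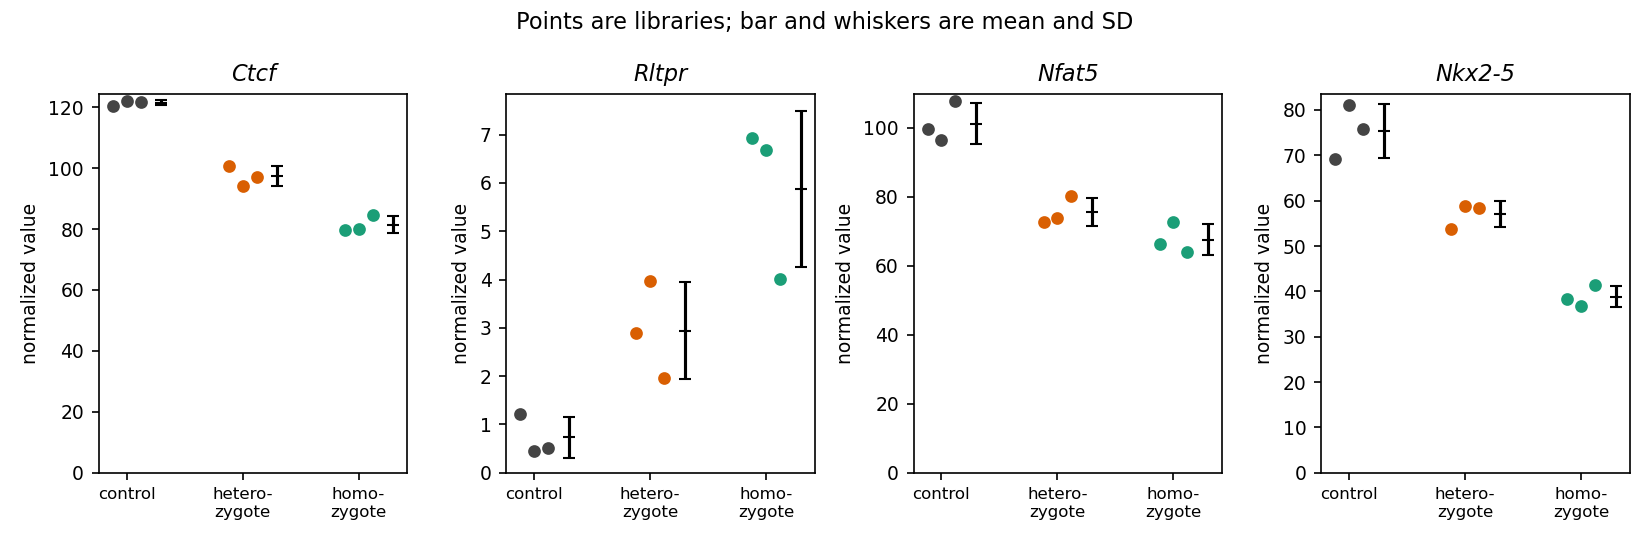
Normalized value (linear axis from 0) of *Ctcf*, its neighbor *Rltpr*, *Nfat5* and *Nkx2-5* in each library by genotype, with the mean and SD (n = 3) beside the points. The heterozygous points lie between control and homozygote points for *Ctcf*, *Rltpr* and *Nkx2-5*.

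Along chromosome 17, 680 genes were tested and 4 were called: *Hmga1*, *Glo1*, *Dynlt1b* and *Tmem181b-ps*. At an unadjusted p under 0.05 there were 38 higher and 32 lower genes, 10.3% of the chromosome against 7.37% over all genes, and 24 genes (3.53%) were at an unadjusted p under 0.01 against 2.03% over all genes. Excluding *Nkx2-5*, the share at an unadjusted p under 0.05 was 4.55% of 44 genes within 1 Mb, 11% of 182 within 5 Mb, 10.5% of 342 within 10 Mb and 11.2% of 454 within 20 Mb. Beyond 20 Mb it was 8% of 225 genes. The median log2 fold change was between 0.02 and 0.03 in the windows up to 20 Mb, and over the alternative settings it ran from -0.00741 to 0.0342 within 1 Mb. The share on the other autosomes ran from 5.90% on chromosome 4 to 9.26% on chromosome 15. The groups differ in the driver and in the *Ctcf* allele, and which of them goes with the chromosome 17 genes cannot be told apart.

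**Figure D3:**
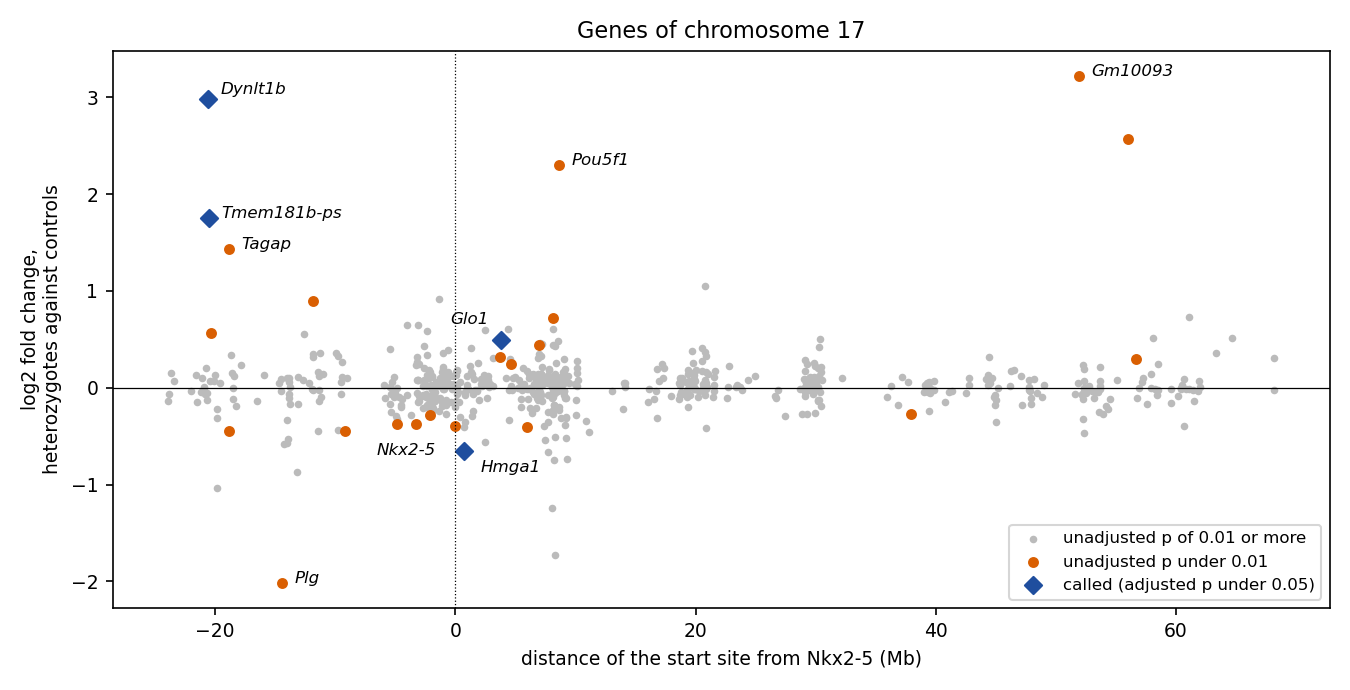
Log2 fold change of heterozygotes against controls for the genes of chromosome 17 by distance of their start site from *Nkx2-5* (Mb), with diamonds for the 4 called genes and larger circles for other genes with an unadjusted p under 0.01. Genes with an unadjusted p under 0.01 lie on both sides of 0 within 20 Mb of *Nkx2-5*, and *Dynlt1b* and *Tmem181b-ps* lie 20.5 Mb to the left of it.

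*Glo1*, which encodes the methylglyoxal-detoxifying glyoxalase 1, rose in heterozygotes. *Glo1* (chromosome 17, 30729811 to 30749604, minus strand, 3.77 Mb from *Nkx2-5*) had 134, 127 and 125 in controls and 189, 167 and 187 in heterozygotes, with no overlap. The log2 fold change was 0.49 (standard error 0.07, limma adjusted p = 0.00856), and homozygotes had 178, 206 and 202. The adjacent *Btbd9* had 35.9 on average in controls and 44.9 in heterozygotes (log2 fold change 0.31, unadjusted p = 0.00842), which did not pass adjustment. Its mean in homozygotes was 41.2. The call of *Glo1* held in 18 of 22 settings, and was lost without control 2, heterozygote 1 or heterozygote 3, one at a time, and without the mean-variance trend.

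*Dynlt1b* and *Tmem181b-ps*, neighbors 20.5 Mb from *Nkx2-5*, rose most among the called genes of chromosome 17. *Dynlt1b* (6429221 to 6435441, plus strand), a dynein light chain gene, had 7.51, 13.1 and 7.67 in controls and 83.2, 70.8 and 73.2 in heterozygotes. The lowest heterozygous value exceeded the highest control value, and the mean was 805% of controls (log2 fold change 2.98, standard error 0.16, limma adjusted p = 1.15e-07). Homozygotes had 82.3, 83.0 and 78.3. *Tmem181b-ps* (6439626 to 6489526, minus strand), annotated as protein-coding despite its name, had 4.83, 4.42 and 6.07 in controls and 19.8, 17.6 and 17.6 in heterozygotes (log2 fold change 1.76, standard error 0.16, limma adjusted p = 5.29e-05). Its homozygote values were 22.6, 21.6 and 15.7. Both overlap the *Gm17692* and *Gm2792* annotations without sharing exons with them.

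Other members of the same families, which lie as a cluster on chromosome 17 except for *Dynlt1-ps1*, did not pass the test. *Dynlt1-ps1*, a pseudogene on chromosome 6, had means of 10.3 in controls, 13.0 in heterozygotes and 4.19 in homozygotes (limma unadjusted p = 0.854). *Dynlt1c* had 10.4, 12.5 and 12.1 in controls and 20.2, 16.2 and 16.3 in heterozygotes, also without overlap (log2 fold change 0.57, unadjusted p = 0.00091, limma adjusted p = 0.197). *Dynlt1a* had 27.6, 28.8 and 29.3 in controls and 20.5, 32.6 and 26.9 in heterozygotes, with overlap. *Dynlt1e* and *Dynlt1f* had identical values in every library, so they are not separate measurements. *Tmem181a* had 17.4, 15.2 and 22.4 in controls and 18.6, 23.4 and 20.9 in heterozygotes. Summed, *Dynlt1b* and *Dynlt1c* were at 443% of controls, and *Tmem181b-ps* and *Tmem181a* at 168%. *Dynlt1b* has near-identical coding transcripts of 4 genes, of which only *Dynlt1c* is in this sum.

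Within 20 Mb of *Nkx2-5*, 16 genes had an unadjusted p under 0.01, 8 higher and 8 lower in heterozygotes (3.52% of 454 genes against 2.03% over all genes), and of these only *Glo1* and *Hmga1* passed adjustment. *Tagap*, a T cell GTPase-activating protein gene 18.9 Mb away, had 0.407, 0.0508 and 0.219 in controls, 2.21, 1.2 and 1.04 in heterozygotes and 2.16, 1.61 and 2.12 in homozygotes (unadjusted p = 0.000689). *Ndufv3*, a subunit gene of respiratory complex I, had means of 76.1, 90.5 and 99.7 in controls, heterozygotes and homozygotes. *Cd320*, the transcobalamin receptor gene, had means of 15.4, 21.2 and 23.4 in the same order. These 3 were higher in all heterozygous libraries than in all control libraries. *Pou5f1*, the pluripotency factor gene, had 0 reads in controls (mean value 0.0607) and means of 2.44 in heterozygotes and 1.44 in homozygotes. *Tagap* and *Pou5f1* had values under 1 in all controls, so both are in the table only through libraries that carry the driver. Both count among the 16 genes, and their p-values and lack of overlap are given as a description and not as support. In the opposite direction, *Lnpep*, an aminopeptidase gene, had means of 40.2, 29.1 and 21.0 and *Zfp942* of 23.7, 18.2 and 20.3. *Plg*, the plasminogen gene, which is expressed in liver, had means of 2.46, 0.0758 and 1.00, the largest fold among the 8 lower genes, and liver markers were lower in heterozygotes as well. *Rsph3a*, *Zfp213*, *Zfp871* and *Rps2* were the remaining lower genes besides *Hmga1*, with log2 fold changes from -0.44 to -0.28, and *9030025P20Rik*, *Hspa1b* and *Btbd9* the remaining higher genes besides *Glo1*, with log2 fold changes from 0.31 to 0.90.

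*Hmga1*, which encodes a high-mobility group chromatin protein, fell in heterozygotes. *Hmga1* (chromosome 17, 27693565 to 27700619, plus strand, 0.715 Mb from *Nkx2-5*) had 352, 371 and 339 in controls and 227, 231 and 217 in heterozygotes. The ranges did not overlap, and the mean was 63.5% of controls (log2 fold change -0.65, standard error 0.07, limma adjusted p = 0.000448). Homozygotes had 243, 198 and 216. Its reads can be shared with near-identical sequence, so its level is uncertain. At its 3' end *Hmga1* overlaps exons of *AI413582* on the opposite strand, which had from 3.87 to 5.64 in controls, and the library kit is not stated to keep strand.

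Several called copies have their parent gene on chromosome 17. This grouping by the parent's chromosome was chosen after values had been seen, and is given as a description. The *Gm13443* copy of *Glo1* had 0 reads in all controls and values of 15.9, 20.1 and 20.4 in heterozygotes and 14.2, 16.3 and 15.8 in homozygotes. Against a floor of 3 reads over the controls together it was at least 153-fold higher in heterozygotes (limma adjusted p = 7.47e-10). With *Glo1* it summed to 155% of controls. For the called copies with 0 reads in all controls, this one included, the control values reflect library scaling alone.

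*Gm15487*, the copy of *Atp6v0c* (proton pump subunit), had 0.0582, 0.762 and 0.365 in controls, 18.5, 20.2 and 16.3 in heterozygotes and 32.6, 19.4 and 20.5 in homozygotes (log2 fold change 4.47, limma adjusted p = 4.77e-07). *Gm14292*, the copy of *Wtap* (a subunit gene of the m6A RNA methyltransferase complex), had 0 reads in controls, 5.54, 6.37 and 5.65 in heterozygotes and 3.97, 2.45 and 5.09 in homozygotes (at least 48.8-fold higher, limma adjusted p = 7.87e-06). *Gm9825* on chromosome 6, the copy of the splicing factor gene *Rnps1*, had 0 reads in controls, 13, 13.1 and 11 in heterozygotes and 10.8, 10.2 and 14.2 in homozygotes (at least 106-fold higher, limma adjusted p = 1.16e-08). All 3 copies were at background or near it in controls and present in every library that carried the driver. Their sums with the parent were 113%, 94.6% and 102% of controls. *Gm14292* has near-identical coding transcripts of 2 genes, as have *Gm15772* and *Gm9846*, and the sums hold only the closest one.

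The parents of *Gm15487*, *Gm14292* and *Gm9825* lie on chromosome 17 at -2.67, -13.8 and -2.43 Mb from *Nkx2-5*. The parents themselves differed little: *Atp6v0c* had a log2 fold change of 0.02, *Wtap* of -0.17 (unadjusted p = 0.0173) and *Rnps1* of -0.06, and none was called.

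*Rps2-ps10*, a copy of the ribosomal protein gene *Rps2*, was also without reads in controls. It lies on chromosome 18 from 61418734 to 61419615 on the minus strand, inside *Pde6a* on the opposite strand and apart from its exons. It had 0 reads in all controls and values of 114, 136 and 91.9 in heterozygotes and 151, 153 and 173 in homozygotes. It was at least 987-fold higher in heterozygotes (limma adjusted p = 1.39e-13). *Rps2* on chromosome 17, 2.12 Mb from *Nkx2-5*, had 1136, 1166 and 1058 in controls and 922, 985 and 862 in heterozygotes (log2 fold change -0.28, unadjusted p = 0.00203, limma adjusted p = 0.287). The sum was 92.6% of controls. The match covers 53.1% of the exonic length of *Rps2-ps10*, which has near-identical coding transcripts of 5 genes, and only *Rps2* is in this sum. In homozygotes *Rps2* had 1183, 1071 and 1241, so its value there was not below controls.

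**Figure D4:**
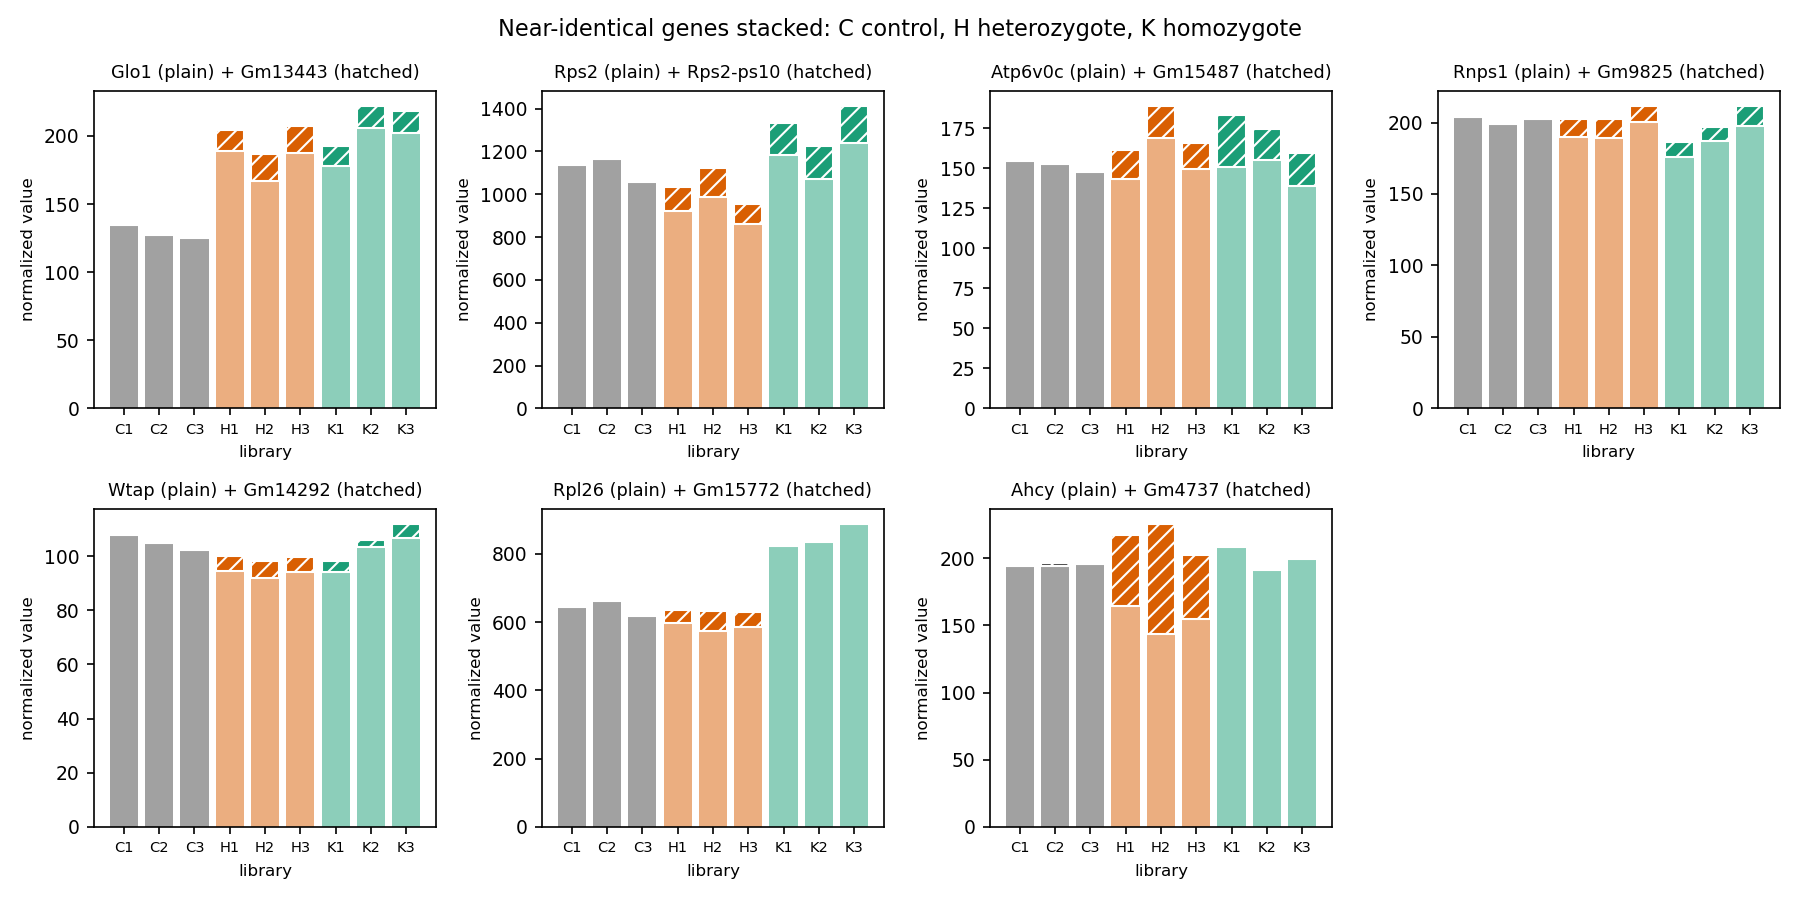
Normalized value (linear axis from 0) of 7 parent genes, plain, with a near-identical copy stacked on top, hatched, in each library (C control, H heterozygote, K homozygote). The hatched part is present in heterozygotes and homozygotes for the first 5 pairs, whose parents are on chromosome 17, and in heterozygotes but hardly in homozygotes for *Gm15772* and *Gm4737*.

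In all, 237 annotated pseudogenes were tested and 8 were called, all higher, where 0.143% of all genes were called. A copy with 0 reads in all controls could not have been lower in heterozygotes, and the counts of copies are given as an account of the members and support nothing. A coding transcript of 95% identity or more that covered 50% or more of the exons was found for 174. Among those with the parent in the table, 14 had the parent on chromosome 17, of which 6 were called and 4 had 0 reads in all controls. All 6 had their parent within 20 Mb of *Nkx2-5*, as had 11 of the 14. Of 157 with the parent on another chromosome, 2 were called and 0 had 0 reads in all controls. The 6 called copies with a parent on chromosome 17 were high in homozygotes too, whereas the remaining 2 were not. Of the uncalled copies with a parent on chromosome 17, *Rps2-ps13* differed most (means of 0.722 in controls, 23.2 in heterozygotes and 2.08 in homozygotes, unadjusted p = 0.0102).

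Another set of copies was high in heterozygotes and low in both other genotypes. *Gm15772* (chromosome 5), a copy of the ribosomal protein gene *Rpl26*, had 0.640, 0.559 and 0.0731 in controls, 40.2, 57.7 and 45.3 in heterozygotes and 1.25, 0.254 and 0.405 in homozygotes (log2 fold change 5.75, standard error 0.33, limma adjusted p = 3.66e-07). *Gm4737* (shown above), an annotated protein-coding copy of *Ahcy*, had 0.0582, 2.59 and 0.0731 in controls, 53.3, 82.2 and 48.3 in heterozygotes and 1.93, 0.0846 and 0.0450 in homozygotes (log2 fold change 5.91, limma adjusted p = 0.000357). Heterozygotes stood apart from all 6 other libraries for both genes. *Gm12245* (chromosome 11), a copy of *Bex4*, had 3.58, 5.24 and 2.65 in heterozygotes and at most 0.291 in controls and 1.94 in homozygotes (log2 fold change 2.74, limma adjusted p = 0.0261).

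The parent of *Gm4737* was itself called lower. *Ahcy*, which encodes S-adenosylhomocysteine hydrolase, had 194, 194 and 196 in controls, 164, 143 and 154 in heterozygotes and 208, 191 and 199 in homozygotes. The log2 fold change was -0.34 (standard error 0.06, limma adjusted p = 0.0482), called in 7 of 22 settings. Together with *Gm4737* it was 110% of controls. *Rpl26* was at 91.2% of controls (log2 fold change -0.13, unadjusted p = 0.0328), and with *Gm15772* at 98.6%. *Bex4* with *Gm12245* was at 99.6%.

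*Rpl34*, a ribosomal protein gene, and *Rpsa-ps10*, an annotated protein-coding copy of *Rpsa*, were called in opposite directions. *Rpl34* had 384, 441 and 383 in controls, 294, 298 and 317 in heterozygotes and 476, 472 and 488 in homozygotes (log2 fold change -0.41, standard error 0.06, limma adjusted p = 0.0181). Its copy *Rpl34-ps1* had 37.3, 0.457 and 1.97 in controls and 96.7, 104 and 55.7 in heterozygotes. The sum was 93.3% of controls. *Rpsa-ps10* had 392, 396 and 289 in controls and 553, 842 and 579 in heterozygotes (log2 fold change 0.86, standard error 0.14, limma adjusted p = 0.0345), and with *Rpsa* summed to 103% of controls. Over 79 cytosolic ribosomal protein genes, *Rpl34* was the only one called, and the median was -0.03, from -0.0894 without control 3 to -0.00165 without control 2. Of the list 7 genes (8.86%) had an unadjusted p under 0.05, all lower, a share near the 7.37% over all genes. *Gm9846*, an annotated coding copy of *Rps27* with 0 differences over 341 aligned bases, had 34, 37 and 39 reads in controls and 0 reads in every heterozygous and homozygous library (values of 4.02, 3.81 and 5.77 in controls, limma adjusted p = 0.000193). It could only have been called lower, and its values in the other libraries reflect library scaling alone.

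*Nrk*, an X-linked protein kinase gene expressed in embryos and placenta, was the remaining called gene. It had 226, 195 and 197 in controls, 156, 154 and 162 in heterozygotes and 169, 166 and 174 in homozygotes. Every heterozygous value was below every control value (log2 fold change -0.39, standard error 0.06, limma adjusted p = 0.0261). *Nrk* was called in 14 of 22 settings. Among uncalled protein-coding genes whose groups did not overlap and whose higher group had a mean of at least 10, the 10 with the smallest p comprised 9 lower and 1 higher in heterozygotes. Genes below that mean, such as *Rltpr* and *Gm10093*, both higher, are not among these 10. Besides *Nkx2-5*, the lower genes included *Hecw2* (log2 fold change -0.51), a ubiquitin ligase gene, *Qser1* (-0.34), *Lcor* (-0.60), a nuclear receptor corepressor gene, *Med13* (-0.29), a Mediator kinase module gene, *Smg1* (-0.34), a kinase gene of nonsense-mediated decay, and *Lpp* (-0.37), with adjusted p from 0.0617 to 0.138 (limma). *Eno3*, the muscle enolase gene, was higher, with 146, 147 and 144 in controls and 171, 189 and 174 in heterozygotes (log2 fold change 0.29, adjusted p = 0.0963).

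Differences moved with gene length. When genes were split by exonic length into 10 groups, in the longest group (1399 genes, median 9933 bases) the median log2 fold change was -0.05, and 29 genes were higher and 168 lower at an unadjusted p under 0.05. In the shortest group (median 993 bases) the median was 0.02, with 86 higher and 48 lower. *Nfat5*, with the longest exons of the called genes that were lower, has an exonic length of 18378 bases. After the trend with length was removed in each library, 13 genes were called higher and 4 lower. *Nrk*, *Nfat5* and *Ctcf* then passed the threshold no longer, with log2 fold changes of -0.34, -0.31 and -0.32 (limma adjusted p = 0.0954, 0.0551 and 0.0551) against -0.39, -0.42 and -0.32 before. The fold of *Ctcf* was thus about as large, and each of the 3 calls was also lost in other settings. *Hecw2* and *Smg1*, which have long exons, had log2 fold changes of -0.43 and -0.25 after removal against -0.51 and -0.34 before.

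No heart gene of the lists was called. Of 40 cardiac transcription factor genes, 2 were higher and 3 lower at an unadjusted p under 0.05 (12.5% of the list against 7.37% over all genes). The largest difference among these was in *Irx2*, an Iroquois factor of the ventricle, with 8.67, 10.8 and 9.72 in controls and 16.3, 11.4 and 15.8 in heterozygotes (log2 fold change 0.54, unadjusted p = 0.00342). *Tbx20*, a T-box factor of the chambers, had 231, 219 and 258 in controls and 207, 203 and 206 in heterozygotes (unadjusted p = 0.0227). Of 47 sarcomere gene entries, 8 were higher and 1 lower at an unadjusted p under 0.05 (19.1% against 7.37% over all genes), and 10.6% had an unadjusted p under 0.01 against 2.03% over all genes. *Tnnc1* is in this list as 2 overlapping entries, with means of 349 and 367 in controls and 409 and 426 in heterozygotes. Both count among the 8 higher and among those with an unadjusted p under 0.01, although they are not separate measurements. The median log2 fold change over the list was 0.10 against -1.99e-05 over all genes. Without control 1 that median was 0.06. *Acta1*, the skeletal alpha-actin gene, had 269, 295 and 257 in controls and 318, 351 and 331 in heterozygotes (log2 fold change 0.28, unadjusted p = 0.000406, limma adjusted p = 0.146).

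Among 13 natriuretic peptide and chamber genes, *Gja1*, the connexin 43 gene, was the 1 gene (7.69%) with an unadjusted p under 0.05, a share near the 7.37% over all genes. It had 147, 162 and 160 in controls, 185, 198 and 174 in heterozygotes and 81.2, 79.3 and 66.9 in homozygotes (log2 fold change 0.24, unadjusted p = 0.00835). For 13 protein genes of the mitochondrial genome the median was 0.19, with 2 higher at an unadjusted p under 0.05 (15.4%), against 7.37% over all genes. No member was called among 9 clustered protocadherin genes (median -0.08), 43 imprinted genes (0.02), 29 p53 targets (0.01) or 15 genes taken by the symbol prefix H2, whatever their function (-0.13). At an unadjusted p under 0.05 these lists held 0, 4, 1 and 2 genes (0%, 9.3%, 3.45% and 13.3%, against 7.37% over all genes). Over the alternative settings the 4 medians ran from -0.133 to 0.0008, from 0.00856 to 0.0338, from -0.0307 to 0.0144 and from -0.16 to -0.0613. The imprinted genes included *Ube3a*, which had 110, 93.0 and 113 in controls and 83.4, 79.7 and 90.1 in heterozygotes (unadjusted p = 0.00165).

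Markers of other cell types are given as summed values because they move with some of these groups. Liver and endoderm markers were lower in heterozygotes in 10 of 12 genes (83.3%) at an unadjusted p under 0.05, against 7.37% over all genes, with a median of -2.07. The others, *Epcam* and *Cldn6*, had log2 fold changes of 0.73 and 0.27 (limma unadjusted p = 0.181 and 0.75). The sums over the list were 1092, 94.7 and 104 in controls and 48.2, 39.0 and 27.7 in heterozygotes, without overlap. *Afp*, the alpha-fetoprotein gene, had 595, 47.6 and 49.2 in controls, 9.66, 6.24 and 3.81 in heterozygotes and 50.8, 3.64 and 55.6 in homozygotes (limma adjusted p = 0.197). Without control 1 the median of the list was -1.09.

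Macrophage markers were lower in 3 of 8 genes (37.5%, against 7.37% over all genes) at an unadjusted p under 0.05 (median -0.54), with sums of 43.8, 44.4 and 52.0 in controls and 31.6, 31.9 and 30.7 in heterozygotes. Of 12 erythroid markers 2 (16.7%) were lower, against 7.37% over all genes. Their median log2 fold change was -0.18, and it was -0.0356 without control 1, -0.00441 without heterozygote 1 and -0.361 without heterozygote 2. Against the mean of controls the medians were -0.565, 0.185 and -0.197 in heterozygotes 1, 2 and 3, so the direction differed between libraries. *Hbb-b1*, an adult beta-globin gene, had 2201, 2043 and 700 in controls and 290, 591 and 586 in heterozygotes (log2 fold change -1.66, unadjusted p = 0.000644). The summed erythroid markers overlapped, from 37080 to 54490 in controls and from 29450 to 49600 in heterozygotes. No member was at an unadjusted p under 0.05 among 9 epicardial and 7 neural crest and neuron markers, and 1 of 12 endothelial and endocardial (8.33%) and 3 of 11 cushion mesenchyme markers (27.3%) were lower, against 7.37% over all genes. The 10 cardiomyocyte markers had a median of 0.15 (0.0888 without control 1), with *Tnnt2*, the cardiac troponin T gene, higher at an unadjusted p under 0.05 (1413, 1639 and 1655 in controls and 1849, 1712 and 1824 in heterozygotes). The part of these cells in other differences was not tested.

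**Figure D5:**
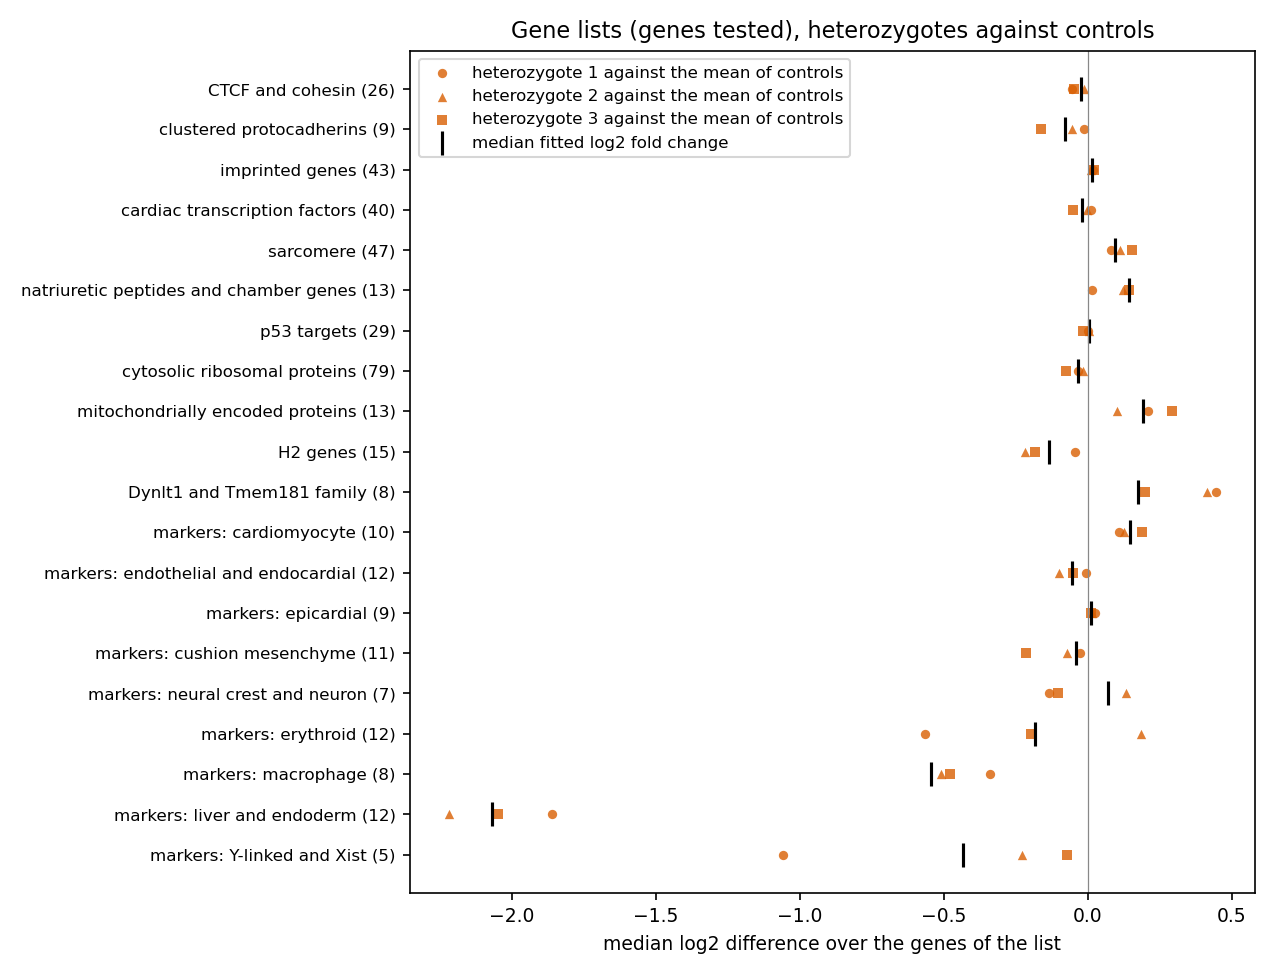
Median log2 difference over the genes of each list for each heterozygous library against the mean of controls (orange symbols) and for the fit (black bar), with the number of genes tested in parentheses. The liver and endoderm list lies near -2 in all heterozygous libraries, and the macrophage list between -0.34 and -0.51, whereas most other lists lie near 0.

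*Xist* and Y-linked transcripts were present in every library. *Xist* had 510, 237 and 336 in controls and 392, 401 and 342 in heterozygotes, and the Y-linked *Ddx3y* had 36.6, 46.0 and 51.5 in controls and 21.0, 31.6 and 42.1 in heterozygotes. Both ranges overlapped, and none of the 4 Y-linked genes or *Xist* had an unadjusted p under 0.05.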

How the data were processed

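RNA-seq values were examined for 9 libraries of pooled E10.5 hearts (6 per pool), 3 each of controls, heterozygotes and homozygotes. PolyA RNA was sequenced on a GAIIx, and the authors deposited normalized signal values by gene on the NCBIM37 transcriptome with Ensembl build 65. The submitters' processing notes list CASAVA 1.8, cutadapt 1.6.1, RSEM 1.20, Bowtie2 0.12.7 and limma, without roles. Deposited signal values were (whole reads + 0.5) scaled to total reads times a TMM factor (0.955 to 1.03), and whole reads were recovered for 100% of values within 0.05 read. Control and heterozygote columns were assigned as groups by group averages given with the study, since the control columns are named Het.

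Values were fitted as log2(value + 0.5) with limma 3.58.1 in R 4.3.3, with all libraries in 3 groups and a trended variance, and p-values were adjusted by Benjamini-Hochberg over 14011 genes. Alternatives included edgeR 4.0.16 and DESeq2 1.42.0 on the recovered reads. Genes were placed with GENCODE M1 (13987 of 14011), near-identical transcripts were searched with BLAST+ 2.17.0, and sequences were read from NCBIM37 and the GENCODE M1 coding transcripts. Replicate pairs of controls and heterozygotes differed beyond sampling noise (chi-square over its degrees of freedom, 3.19 to 7.12). The sources do not say how hearts were divided among pools, so p-values measure only the spread between these pools, which may be in part technical.

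Named genes were all called genes, called members and up to 4 members with the smallest p of each list and window, the 3 measured neighbors on each side of *Ctcf* and *Nkx2-5*, near-identical parents, up to 10 uncalled genes without overlap, Y-linked genes and *Xist*. *Rps2-ps13*, *Rpl34-ps1*, *Btbd9*, *Cd320*, *Lnpep*, *Plg*, *Pou5f1*, *Rsph3a*, *Zfp213*, *Zfp871*, *Hspa1b*, *Epcam* and *Cldn6* were added once values had been seen. The comparison, the 20 gene lists and the windows were chosen with earlier results of these data known. Columns of the study's own statistics were not used. The values of 1 called gene are not reported here, although it is included in the counts.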

Additional observations from a re-analysis of the deposited data

How the results depend on the processing

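Of 22 alternative fits, all kept the direction of each of the 20 called genes that they tested, and *Dynlt1b* and *Tmem181b-ps* were called in every one. The calls of *Rps2-ps10*, *Gm13443*, *Gm9825*, *Gm15772*, *Gm15487*, *Gm14292* and *Gm9846* were also made in every fit that tested them, but these genes are in the table only through the libraries where they are high, so this is no sign of stability. Against 20 genes called (13 higher, 7 lower), DESeq2 called 40 (17 higher, 23 lower), edgeR 21, voom 24, limma without the mean-variance trend 10 (9 higher, 1 lower) and a fit of protein-coding genes alone 10 (5 higher, 5 lower), where pseudogenes could not be called. An adjusted p under 0.01 left 13 (2 lower) and one under 0.1 gave 26 (11 lower). Removal of the length trend, chosen after seeing the data, left 17 (4 lower). Leaving out each library in turn gave from 13 to 25 genes, from 10 to 22 higher and from 3 to 10 lower. Lowest was 13 without heterozygote 3, and 22 higher without control 1. Pseudocounts of 0.1 and 1, quantile normalization, filters on low values and a fit of the 6 libraries gave from 17 to 21. With a replicate block by column number 15 genes were called, 12 higher and 3 lower. Same-numbered libraries showed no clear shared deviation (r of -0.04, -0.08 and 0.06 over 9847 genes), and differently numbered ones had r from -0.0439 to 0.0976. With 3 libraries a group, this cannot tell whether the samples were paired. *Hmga1* was called in 21 of 22 fits, *Gm4737* in 20, *Glo1* in 18, *Rpl34* in 17, *Nrk* and *Rpsa-ps10* in 14, *Nfat5* in 12, *Gm12245* in 12 of 20, *Ahcy* in 7 and *Ctcf* in 6. The median of the liver and endoderm list ran from -2.92 (pseudocount 0.1) to -1.09 (without control 1) over these fits. Depth limits the copies with 0 reads in controls, whose fold is a lower bound.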

Other observations

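*Gm9000* (chromosome 13), a coding gene that did not pass the test, had 50.5, 64.1 and 1.39 in controls 1, 2 and 3, 0.147, 0.442 and 0.115 in heterozygotes and 136, 38.5 and 30.1 in homozygotes (limma adjusted p = 0.142). *2810453I06Rik* (chromosome 5) had 31.3, 30.6 and 5.34 in controls, 2.89, 3.72 and 2.19 in heterozygotes and 5.11, 3.30 and 6.53 in homozygotes (limma adjusted p = 0.129). In both genes control 3 lay nearer to the heterozygotes than the other 2 controls did. *Gm10093*, 51.9 Mb from *Nkx2-5* on chromosome 17, had 3.32, 0.0508 and 0.0731 in controls, 12.5, 9.40 and 7.04 in heterozygotes and 0.795, 3.81 and 3.83 in homozygotes (limma adjusted p = 0.106). *Nrap*, a sarcomere assembly gene, had 4.02, 6.15 and 8.84 in controls, 3.87, 0.0631 and 0.115 in heterozygotes and 0.114, 0.0846 and 1.49 in homozygotes (limma adjusted p = 0.322).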
